A study of Bubalus bubalis with 6 samples.

Results

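A set of 48 genes of Wnt signaling was followed in buffalo muscle stem cells (MuSCs): secreted Wnt ligands, their receptors and co-receptors, the proteins that block them, the R-spondin axis, intracellular regulators and genes commonly used as readouts. The genes were taken by symbol, whatever their level, but the set was chosen with earlier results of these data known. The deposited table lists 24616 genes, among them 45 of the set, and FZD3, FZD8 and NOTUM were not analysed here. Positions given below are the deposited ones, which go with cattle Ensembl identifiers and need not be positions in the buffalo genome. A Wnt ligand binds a frizzled receptor together with a co-receptor. With LRP5 or LRP6 the signal releases β-catenin from a destruction complex, and β-catenin then joins TCF/LEF factors on target genes, whereas with ROR1 or ROR2 the signal runs through branches that do not need β-catenin. In skeletal muscle, Wnt signaling is known for its part in satellite cell self-renewal, in myoblast fusion and in the behaviour of the fibroblast-like cells around fibers.

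Primary cells from the longissimus muscle of buffalo fetuses were sampled in 2 states. The 3 GM samples were labelled as proliferating and came from growth medium, high-glucose DMEM with fetal bovine serum. The 3 DM samples were labelled as differentiation and came from near-confluent cells moved to differentiation medium, DMEM with horse serum, which starts the fusion of myoblasts into myotubes. No allele, transgene or drug separated the groups, which shared the tissue, the cell type and the polyA RNA-seq assay. The labels do not say whether replicates were separate cultures or animals, so the p-values measure the spread between these samples, which may be technical.

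Between 35615864 and 40305237 reads were counted on genes per sample. DM replicate 3 stood apart from DM replicates 1 and 2 along a second principal component with 8.79% of the variance, while the first, with 80.5%, separated GM from DM. Muscle identity was read from PAX7, the transcription factor of satellite cells, which was at 12.5 to 12.7 RPKM in GM and 3.90 to 7.68 RPKM in DM samples, and from MYOG, the differentiation factor, at 28.5 to 47.5 and 104 to 125 RPKM. Markers of other cells were present too: the receptor PDGFRA of fibro-adipogenic cells was at 86.5 to 91.7 RPKM in GM and 93.7 to 139 RPKM in DM samples. PECAM1 of endothelium had 0 to 8 counts and PTPRC of leukocytes 0 to 2 counts per sample. Other markers of these lists had more reads. Those of highest mean RPKM were CLDN5, with 48 to 122 counts, and CD68, with 76 to 237 counts per sample.

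For each gene, log2 fold changes of DM over GM were fitted with edgeR over the whole table, and a gene was called when the absolute log2 fold change was above 1 and the adjusted p under 0.05. Of the 43 set genes that had at least 10 counts in total, 18 were called, 41.9% against 25.3% of all 15576 genes tested. Higher in DM samples were 13, 30.2% against 15.0%, and lower were 5, 11.6% against 10.3%. At the adjusted p alone 29 passed, 67.4% against 63.0%, with 17 higher (39.5% against 31.6%) and 12 lower (27.9% against 31.4%). In CPM, GM and DM samples did not overlap in 32 of the 43, 74.4% against 68.8% of all tested genes. The median log2 fold change was 0.15 over the 43 and 0.03 over all tested genes. These shares describe a set chosen with earlier results of these data known, and were not tested.

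Over all genes tested, 15.0% were called higher and 10.3% lower. The counts by role cover at most 10 tested genes each, and their difference from these shares was not tested. Of 6 tested frizzled receptors 4 rose and 1 fell. Of 4 co-receptors 2 rose, and of 10 antagonists 4 rose and 1 fell. Of 8 tested ligands 2 rose and 2 fell. In the R-spondin axis 1 of 4 fell, among 6 intracellular regulators 1 rose, and none of the 4 TCF/LEF factors nor the 1 tested CCN gene was called by edgeR, where 2 and 1 of them passed the adjusted p alone.

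**Figure D1:**
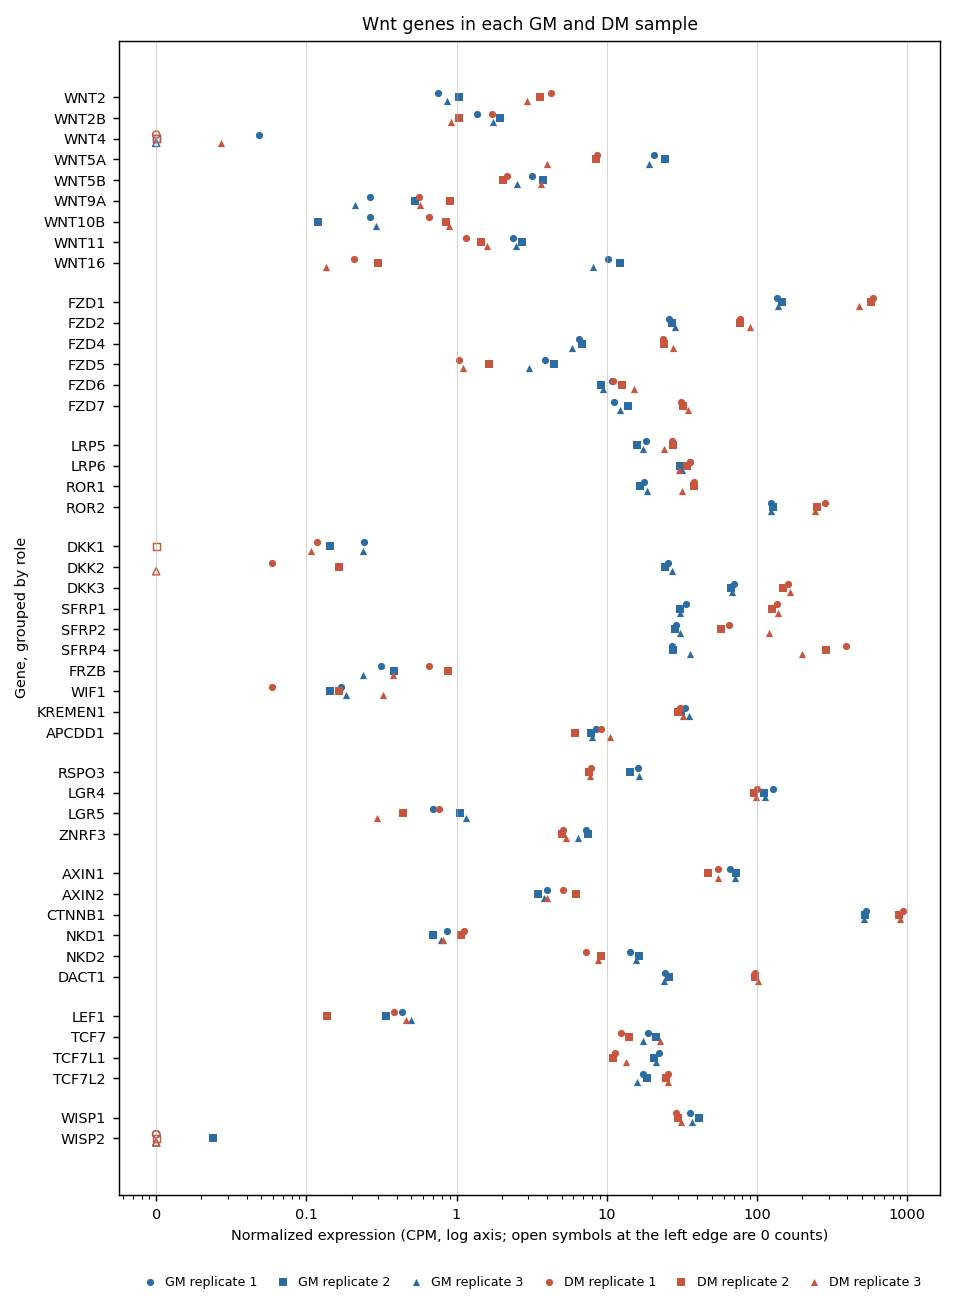
Normalized expression in CPM (log axis) of the 45 listed Wnt genes in each sample, blue for GM and red for DM, with circles, squares and triangles for replicates 1, 2 and 3 and open symbols for 0 counts. DKK2 and WNT16 lie far to the left in the 3 DM samples, and SFRP4, the frizzleds other than FZD5 and FZD6, and DACT1 lie to the right.

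The ligand with the most transcript per length in GM samples fell in DM. WNT5A, which acts mainly through ROR receptors and frizzleds without β-catenin (ENSBTAG00000020221, chromosome 22, 46096245 to 46112683), was at 20.5, 24.3 and 19.0 CPM (counts scaled to the TMM-adjusted size of a library) in GM replicates 1, 2 and 3 and at 8.59, 8.44 and 3.97 CPM in the DM replicates. The groups did not overlap, and DM replicate 3 was the lowest sample. The log2 fold change was -1.61 (SE 0.237, adjusted p = 0.000153 by edgeR), and -1.31 without DM replicate 3.

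WNT16, a ligand studied mostly in bone and blood stem cell formation, nearly left the data (ENSBTAG00000002940, chromosome 4, 86598084 to 86609355). It had 424, 511 and 309 counts in the GM replicates and 7, 11 and 5 counts in the DM replicates. In CPM this was 10.2 ± 2.07 (SD, n = 3) against 0.214 ± 0.0829, with every DM sample far below every GM sample. The log2 fold change was -5.56 (SE 0.282, adjusted p = 5.9e-08 by edgeR), and the ratio of summed counts, scaled by TMM-adjusted library sizes, was 48.0 with a 95% exact interval of 31.8 to 76.0 that covers counting error only.

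A pair of weakly expressed ligands rose. WNT2, a ligand that signals through β-catenin (ENSBTAG00000008097, chromosome 4, 51398056 to 51441973), went from 0.747, 1.03 and 0.87 CPM in GM to 4.23, 3.58 and 2.95 CPM in DM samples, with no overlap and a log2 fold change of 2.02 (SE 0.246, adjusted p = 3.61e-05). WNT10B, a ligand known for favouring muscle over fat in precursor cells (ENSBTAG00000015347, chromosome 5, 31013104 to 31014446), had 11, 5 and 11 counts in GM and 22, 31 and 33 in DM samples. Its groups did not overlap either, but with so few reads the log2 fold change of 1.82 had an SE of 0.442 (95% interval 0.83 to 2.80, adjusted p = 0.00435), and a test against a 2-fold change did not call it (adjusted p = 0.0854).

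The other ligands stayed closer to their GM level. WNT11, a ligand of the branches without β-catenin, was at 2.53 ± 0.17 CPM in GM and 1.40 ± 0.224 CPM in DM samples (log2 fold change -0.85, adjusted p = 0.00722), below the fold threshold. WNT2B had a log2 fold change of -0.47 (95% interval -1.14 to 0.21). WNT5B, close to WNT5A in sequence, was at 2.16 and 2.05 CPM in DM replicates 1 and 2, below the lowest GM sample at 2.53 CPM, and at 3.68 CPM in DM replicate 3, within the GM range. Its log2 fold change was -0.26 (adjusted p = 0.41), and -0.58 without that replicate (adjusted p = 0.0263). WNT9A had 8 to 22 counts in GM and 19 to 33 in DM samples, with a log2 fold change of 1.003 (adjusted p = 0.0805). It was called without GM replicate 2 (1.49, adjusted p = 0.0317) and without DM replicate 3 (1.12, adjusted p = 0.0449). WNT4 had 3 counts over the 6 samples and was not tested, so no difference was detectable at this depth.

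Frizzleds are the 7-pass membrane proteins to which Wnt ligands bind, and most of those listed rose in DM samples. FZD1 (ENSBTAG00000002107, chromosome 4, 8490676 to 8494829) was at 135, 146 and 138 CPM in GM replicates 1, 2 and 3 and at 590.1, 574 and 476 CPM in the DM replicates. The lowest DM sample, replicate 3, was still far above the highest GM sample. The fold was 3.91 (log2 fold change 1.97, SE 0.086, adjusted p = 2.25e-08).

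FZD4, a receptor that also takes up Norrin in blood vessels (chromosome 29, 8669606 to 8673380), went from 6.58, 6.85 and 5.88 CPM to 23.6, 23.9 and 27.6 CPM (log2 fold change 1.96, SE 0.108, adjusted p = 1.01e-07). FZD2, a receptor for WNT5A among other ligands (chromosome 19, 44954982 to 44956760), went from 25.99, 27.2 and 28.3 CPM to 77.6, 76.9 and 89.6 CPM (log2 fold change 1.58, SE 0.081, adjusted p = 6.07e-08). FZD7, described as a receptor on satellite cells (chromosome 2, 90987008 to 90989214), went from 11.1, 13.8 and 12.3 CPM to 31.2, 32.4 and 34.7 CPM (log2 fold change 1.40, SE 0.096, adjusted p = 4.92e-07). In all of these receptors every DM sample was above every GM sample.

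FZD5, a receptor known from eye and gut, moved the other way (chromosome 2, 96470387 to 96472144). It was at 3.91, 4.42 and 3.06 CPM in GM and 1.04, 1.64 and 1.11 CPM in DM samples, again without overlap (log2 fold change -1.59, SE 0.251, adjusted p = 0.000257). FZD6, which acts in planar cell polarity, was at 9.85 ± 0.878 and 12.9 ± 2.06 CPM (log2 fold change 0.39, adjusted p = 0.0258), and its adjusted p was 0.0515 without DM replicate 3. In the table, the annotated length of 4 of the 6 frizzled genes, FZD1, FZD2, FZD5 and FZD7, equals their span on the chromosome, as for a gene without introns, and this held for 0 of the other listed set genes.

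Per length, the order of the frizzleds in GM samples was FZD1 at 34.8 ± 1.33 RPKM, FZD2 at 15.8, FZD7 at 5.82, FZD4 at 4.13, FZD6 at 4.03 and FZD5 at 2.23. FZD4 and FZD6 did not differ beyond their spread. In DM samples FZD1 was at 127 ± 14.0 RPKM and FZD2 at 44.2, followed by FZD4 at 15.0 ± 1.41 and FZD7 at 14.4 ± 0.928, which did not differ beyond their spread, then FZD6 at 4.96 and FZD5 at 0.695. Summed over the 6 genes, frizzled RPKM was 66.8 ± 2.18 in GM and 206 ± 7.60 in DM samples, 3.09 times as much.

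Co-receptors sort the signal between branches. ROR2, a receptor tyrosine kinase that pairs with WNT5A (ENSBTAG00000005092, chromosome 8, 87340388 to 87578642), was at 124, 127 and 124 CPM in GM and 285, 253 and 244 CPM in DM samples, with no overlap. Its log2 fold change was 1.06 (SE 0.07, adjusted p = 3.64e-07), just past the threshold, and it was not called without DM replicate 1 (0.999) or with library size alone (0.96). ROR1, its close relative, went from 17.7, 16.6 and 18.6 CPM to 38.0, 37.8 and 31.5 CPM, a log2 fold change of 1.02 (SE 0.093, adjusted p = 3.87e-06). That call was lost without GM replicate 2 (0.98), DM replicate 1 (0.98) or DM replicate 2 (0.99) and with library size alone (0.92). ROR1 overlaps a U5 RNA gene on the opposite strand, and the counting strand is not given in the sources used here.

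LRP5, a co-receptor of the β-catenin branch, was at 17.2 ± 1.28 CPM in GM and 26.3 ± 1.89 CPM in DM samples (log2 fold change 0.61, adjusted p = 0.000161), below the fold threshold. LRP6, its partner in the same branch, was at 32.7 ± 2.62 and 33.5 ± 3.09 CPM. Its log2 fold change of 0.03 had a 95% interval of -0.17 to 0.23, which does not reach a 2-fold change either way, and its direction turned with library size alone (-0.065). LRP6 overlaps another listed gene, ENSBTAG00000030431, on the same strand, and reads of both may be mixed.

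Secreted antagonists held both the largest fall and the largest rise of the set. DKK2, which binds LRP5 and LRP6 and can keep ligands from using them (ENSBTAG00000012969, chromosome 6, 19381413 to 19511148), had 1062, 1010 and 1034 counts in the GM replicates and 2, 6 and 0 counts in the DM replicates. Summed over samples, 3106 counts stood against 8, a ratio of 345 after TMM scaling (95% exact interval 175 to 799, counting error only). The log2 fold change was -8.37 (SE 0.309, adjusted p = 8.93e-09 by edgeR). Because the DM counts are so few, it moved to -9.66 when DM replicate 2 was left out and to -7.77 when DM replicate 3 was left out.

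SFRP4, a secreted frizzled-related protein that captures Wnt ligands outside the cell (ENSBTAG00000015366, chromosome 4, 50009882 to 50020466), was at 27.2, 27.6 and 36.0 CPM in GM and 394, 289.6 and 199.96 CPM in DM samples. All DM samples lay above the GM range, though DM replicate 3 reached 0.585 of the mean of the other two. The fold was 9.74 (log2 fold change 3.28, SE 0.22, adjusted p = 4.08e-07), and the log2 fold change was 3.51 without DM replicate 3.

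SFRP1, of the same family (chromosome 27, 35900362 to 35943920), went from 33.7, 30.8 and 30.5 CPM to 136, 126 and 139 CPM, with close replicates in both groups (log2 fold change 2.07, SE 0.072, adjusted p = 6.17e-09). SFRP2, the third member (chromosome 17, 3829564 to 3838136), was at 29.1, 28.7 and 30.7 CPM in GM and 65.5, 57.7 and 121 CPM in DM samples. DM replicate 3 held 1.96 times the mean of the other DM samples, the opposite of its place for SFRP4. The log2 fold change was 1.47 (SE 0.227, adjusted p = 0.000218), and 1.07 without that replicate, where it was still called. The test against a 2-fold change did not call it (adjusted p = 0.0553).

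DKK3, a Dickkopf protein that does not share the LRP binding of its relatives (chromosome 15, 41241522 to 41291990), went from 69.9, 67.0 and 68.5 CPM to 161, 149 and 165 CPM (log2 fold change 1.21, SE 0.063, adjusted p = 7.05e-08). DKK1, the Dickkopf antagonist best known from head and bone formation, had 10, 6 and 9 counts in GM and 4, 0 and 4 counts in DM samples (log2 fold change -1.43, 95% interval -3.22 to 0.35, adjusted p = 0.145). Its groups did not overlap, but this depth leaves both no change and a change of several fold within the interval. KREMEN1, the membrane partner through which Dickkopf proteins remove LRP6, was at 23.4 RPKM in GM and 20.3 RPKM in DM samples (log2 fold change -0.11, 95% interval -0.27 to 0.06).

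The remaining antagonists were low or level. FRZB, the fourth of the frizzled-related proteins, had 9 to 16 counts in GM and 14 to 32 in DM samples (log2 fold change 1.01, adjusted p = 0.0733), and was called without DM replicate 3 (1.29, adjusted p = 0.0174). WIF1, which binds ligands directly, had 6 to 7 counts in GM and 2, 6 and 12 in DM samples (log2 fold change 0.15, adjusted p = 0.854), turning to -0.53 without DM replicate 3. It overlaps a U6 RNA gene on its own strand and the miRNA gene bta-mir-2429 on the opposite one, and reads of these may be mixed with its own. APCDD1, a membrane inhibitor of ligand and LRP, had a log2 fold change of 0.08 (95% interval -0.31 to 0.48), which was -0.077 without that replicate and -0.015 with library size alone.

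**Figure D2:**
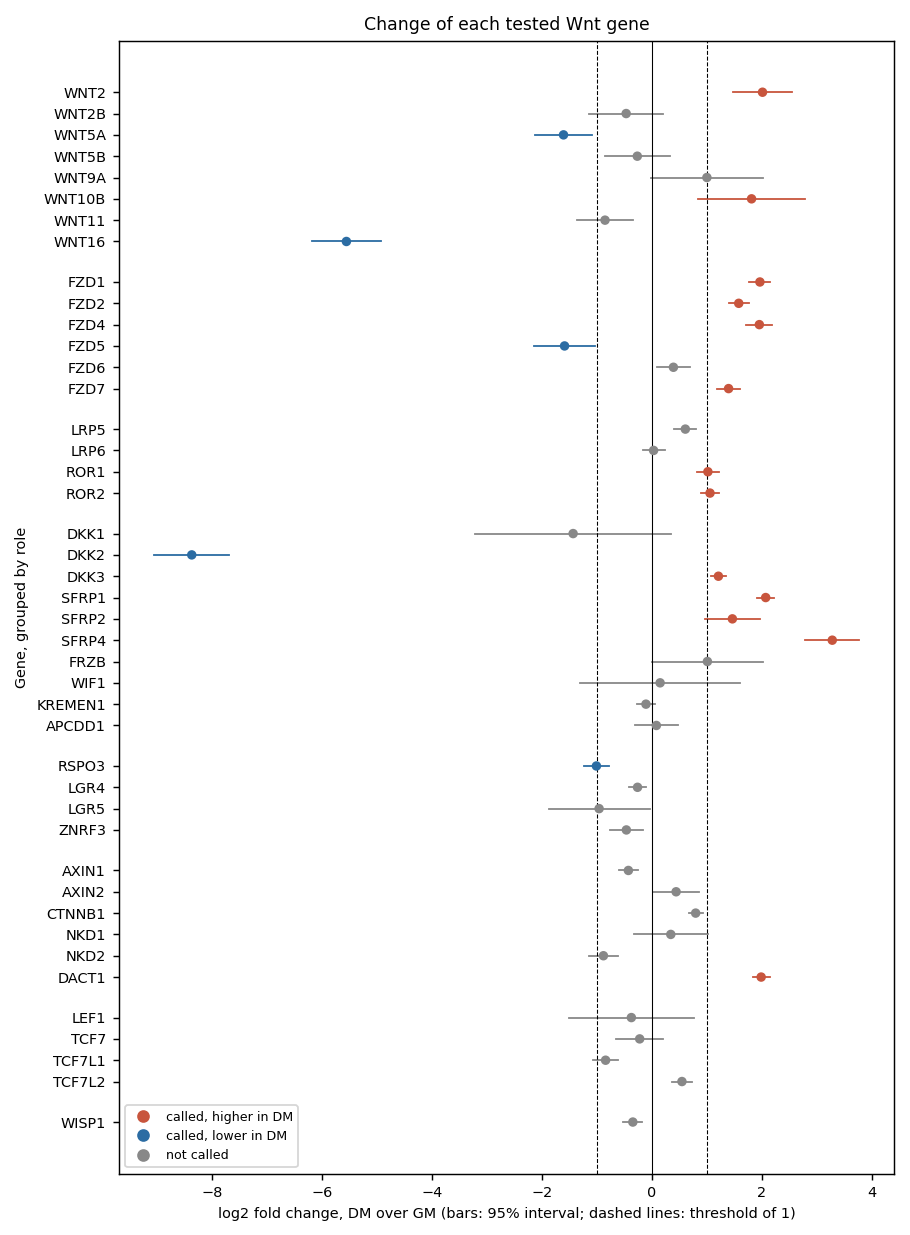
Fitted log2 fold change of DM over GM (x axis) with its 95% interval for the 43 tested Wnt genes, grouped by role, in red where called higher in DM, blue where called lower and gray where not called, with dashed lines at the threshold of 1. DKK2 (-8.37) and WNT16 (-5.56) lie far left, SFRP4 (3.28) farthest right, and RSPO3, ROR1 and ROR2 sit on the dashed lines.

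R-spondins lengthen Wnt signals by binding LGR receptors, which keeps the ubiquitin ligase ZNRF3 from removing frizzleds from the surface. RSPO3 (ENSBTAG00000008121, chromosome 9, 24365333 to 24508267) was at 16.1, 14.2 and 16.4 CPM in GM and 7.85, 7.65 and 7.73 CPM in DM samples, with no overlap. Its log2 fold change was -1.01 (SE 0.106, adjusted p = 1.17e-05), and since it lies on the threshold the call was lost without GM replicate 1 (-0.98), GM replicate 3 (-0.97), DM replicate 2 (-0.98) or DM replicate 3 (-0.997).

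The receptor LGR4 was at 127, 112 and 114 CPM in GM and 100.3, 96.0 and 98.7 CPM in DM samples. That difference was small beside the called ones but larger than the spread (log2 fold change -0.26, adjusted p = 0.00652). ZNRF3 was at 7.31, 7.52 and 6.44 CPM in GM and 5.09, 5.0004 and 5.35 CPM in DM samples (log2 fold change -0.46, adjusted p = 0.0125), also below the fold threshold. LGR5, a receptor known as a stem cell marker in gut, had 29, 44 and 44 counts in GM and 26, 16 and 11 counts in DM samples (log2 fold change -0.96, adjusted p = 0.0654). It was called without DM replicate 1 (-1.39, adjusted p = 0.0212) and with library size alone (-1.06, adjusted p = 0.0437). The gene overlaps a U6 RNA gene on its own strand.

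Inside the cell, the largest change was in DACT1, a scaffold that binds Dishevelled (ENSBTAG00000019421, chromosome 10, 71152285 to 71161697). It was at 24.3, 26.03 and 24.03 CPM in GM and 96.6, 96.6 and 102 CPM in DM samples, a fold of 3.98 (log2 fold change 1.99, SE 0.068, adjusted p = 6.17e-09). Replicates lay close together in both groups, DM replicate 3 included.

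CTNNB1, the gene of β-catenin, which serves both as the signal carrier and as a part of cell junctions (chromosome 22, 13842703 to 13889468), was the set gene with the most transcript per length in both groups. It was at 532, 522 and 517 CPM in GM and 941, 889 and 903 CPM in DM samples. The difference was many times the spread (log2 fold change 0.80, SE 0.057, adjusted p = 6.1e-07), and below the fold threshold. AXIN1, a scaffold of the destruction complex, was lower in DM at 66.5, 72.7 and 71.5 against 54.9, 47.3 and 54.8 CPM (log2 fold change -0.42, adjusted p = 0.000698). NKD2, which binds Dishevelled, was at 14.3, 16.4 and 15.7 CPM in GM and 7.31, 9.15 and 8.78 CPM in DM samples (log2 fold change -0.88, adjusted p = 7.91e-05). Its relative NKD1 had 29 to 36 and 30 to 39 counts, and no difference was detectable (log2 fold change 0.35, 95% interval -0.33 to 1.02).

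AXIN2, often read as the feedback target of β-catenin signaling (chromosome 19, 62834850 to 62860774), was at 3.98, 3.46 and 3.82 CPM in GM and 5.09, 6.20 and 4.03 CPM in DM samples. In CPM the groups did not overlap, by a small margin, but in RPKM GM replicate 1 (1.11) was above DM replicate 3 (1.05). The log2 fold change was 0.44 (95% interval 0.03 to 0.86, adjusted p = 0.0612), and 0.60 without that replicate (adjusted p = 0.00352).

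The TCF/LEF factors bring β-catenin to DNA. TCF7L2 was at 17.6, 18.4 and 15.9 CPM in GM and 25.5, 24.7 and 25.8 CPM in DM samples (log2 fold change 0.55, SE 0.084, adjusted p = 0.000193). TCF7L1, known chiefly as a repressor, was at 22.2, 20.7 and 21.2 CPM in GM and 11.4, 11.01 and 13.5 CPM in DM samples (log2 fold change -0.84, SE 0.101, adjusted p = 3.27e-05). Both differences exceeded the spread and neither reached the fold threshold. TCF7 was at 18.7, 21.2 and 17.5 CPM in GM, at 12.5 and 14.1 CPM in DM replicates 1 and 2 and at 22.7 CPM in DM replicate 3, the highest of all 6 samples. Its log2 fold change of -0.22 (adjusted p = 0.341) became -0.52 without that replicate (adjusted p = 0.000112). LEF1 had 14 to 19 and 5 to 17 counts (log2 fold change -0.37, 95% interval -1.51 to 0.76), with its direction turned without DM replicate 2 (0.014).

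The CCN genes encode matrix proteins first described as Wnt-induced. WISP1 was at 35.7, 41.4 and 36.8 CPM in GM and 29.0, 29.6 and 31.2 CPM in DM samples, with no overlap and a log2 fold change of -0.34 (SE 0.079, adjusted p = 0.00305). WISP2 had 1 count over the 6 samples and was not tested.

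Shares of the summed RPKM within a family show which member made up the pool in each sample, and they do not depend on library scaling. In GM samples WNT5A held 56.2% ± 0.84 of the ligand pool and WNT16 17.3% ± 1.31. In DM samples WNT16 held 0.723% ± 0.237, WNT2 held 14.2% ± 1.56, against 1.76% in GM, and WNT10B 9.98% ± 2.32, against 1.46%. The WNT5A share was 43.1, 42.6 and 23.4% in DM replicates 1, 2 and 3, and that of WNT5B 16.8, 16.01 and 33.5%, so that WNT5B was the leading ligand in DM replicate 3. The pool itself was 23.2 ± 3.18 RPKM in GM and 10.8 ± 0.951 RPKM in DM samples, 0.466 times as much.

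FZD1 made up 52.1% ± 0.283 of frizzled RPKM in GM and 61.5% ± 4.75 in DM samples, while FZD5 went from 3.34% to 0.336%. In the frizzled-related family SFRP4 held 42.2, 43.5 and 49.1% in GM and 78.6, 74.9 and 56.5% in DM samples, and SFRP2 went from 36.3% ± 1.54 to 10.8, 12.3 and 28.2%. That pool was 42.2 ± 3.41 RPKM in GM and 289, 231 and 209 RPKM in DM samples. Among TCF/LEF factors TCF7L1 led in GM at 44.7% ± 2.36 and TCF7L2 in DM at 55.9% ± 4.36, with summed RPKM of 33.0 ± 1.37 and 29.0 ± 2.89. Of the 3 Dickkopf genes DKK3 made up 68.2% ± 1.15 in GM and 99.8% ± 0.0384 in DM samples, where DKK2 went from 31.4% to 0.0597%. These shares are descriptions, and no test was made.

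**Figure D3:**
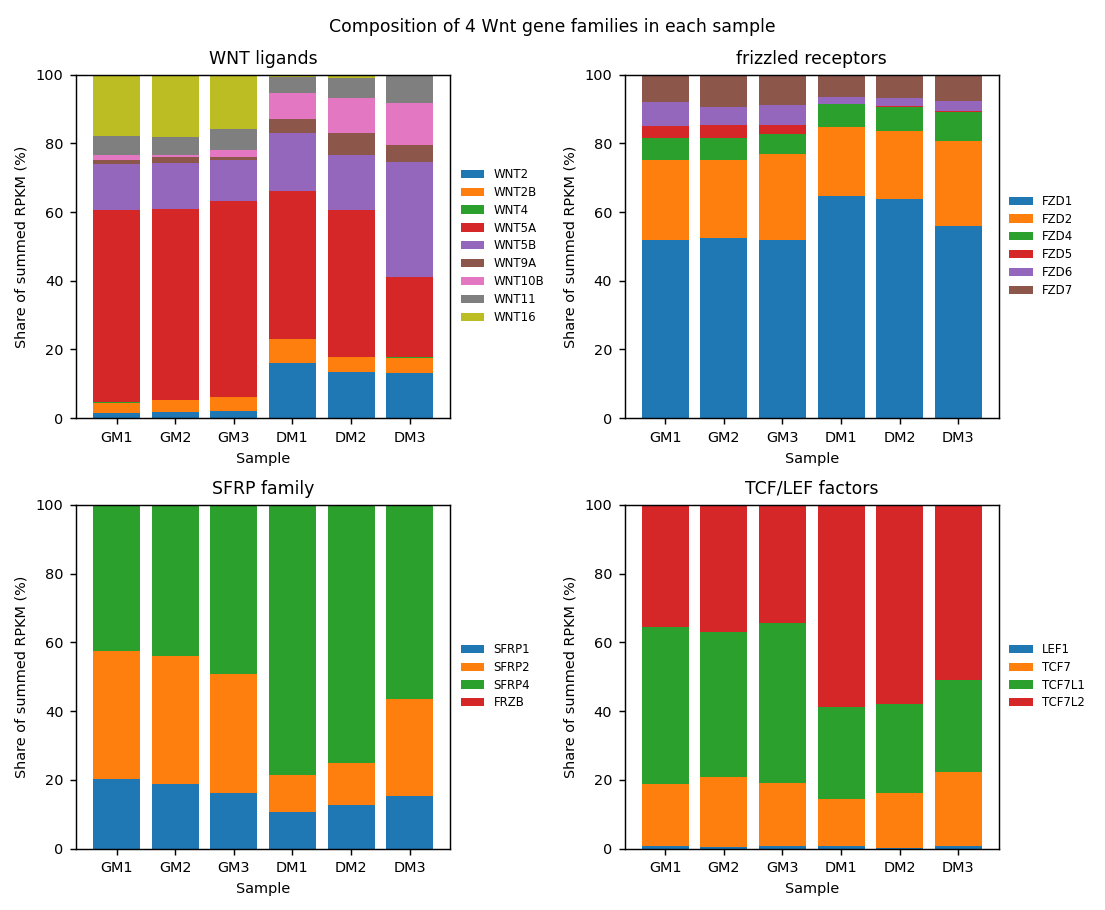
Share of the summed RPKM (%, stacked to 100) that each gene of 4 families held in each sample. WNT16 holds 15.8 to 18.2% in GM and 0.515 to 0.981% in DM samples, SFRP4 fills 56.5 to 78.6% of its family in DM samples, and DM replicate 3 has more WNT5B and SFRP2 than the other DM samples.

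The transcript table held 52 transcripts of the 45 genes, with 1 transcript for 40 of them and several for ROR1, ROR2, WIF1, TCF7 and TCF7L2. Of 50 tested, 19 were called, 14 higher and 5 lower. Of all 16352 transcripts tested, 4184 were called (25.6%), 2531 higher and 1653 lower. When libraries were scaled by their size only, the median log2 fold change over all transcripts moved from 0.03 to -0.12, and the calls over all transcripts from 2531 higher and 1653 lower to 2169 and 2140. Transcripts of ROR2, TCF7L2 and TCF7 lay close to their gene: log2 fold changes were 1.15 and 1.04 for those of ROR2, 0.53, 0.50 and 0.51 for those of TCF7L2 and -0.24, -0.33 and -0.24 for those of TCF7. A single call differed from its gene, that of ROR1 transcript ENSBTAT00000016333 (0.96), and a single sign, that of WIF1 transcript ENSBTAT00000045118 (-0.22), which was not called. A pair of TCF7 transcripts had the same count in every sample, so reads shared between overlapping transcripts were counted on both, and the transcripts are not independent measurements.

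By the deposited coordinates, which go with cattle Ensembl identifiers, the 45 genes were spread over 23 chromosomes, with at most 5 on the same one. Pairs closer than a megabase were LEF1 and DKK2 on chromosome 6, 930638 bases apart, and ZNRF3 and KREMEN1 on chromosome 17, 33926 bases apart. DKK2 was called and LEF1 was not, and neither ZNRF3 nor KREMEN1 was called.

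A second list, also chosen with earlier results of these data known, held 102 further names of Wnt signaling, from other ligands to target genes. Of these 94 were listed and 80 tested, and 22 were called (27.5% against 25.3% of all genes), 12 higher (15.0%, the same as over all genes) and 10 lower (12.5% against 10.3%). Their median log2 fold change was -0.09. On the ligand side, WNT7B, a ligand of the β-catenin branch, had 38, 61 and 31 counts in GM and 1, 1 and 2 counts in DM samples, a ratio of 28.8 after TMM scaling (95% exact interval 10.998 to 107, counting error only), and was the 1 called of 5. PORCN, the enzyme that puts the lipid on Wnt ligands, was at 16.5, 17.9 and 16.01 CPM in GM and 5.71, 6.56 and 4.32 CPM in DM samples (log2 fold change -1.60, SE 0.149, adjusted p = 4.69e-06). Ligand carrier WLS was at 137.9 ± 3.62 and 176 ± 18.1 CPM (log2 fold change 0.35, adjusted p = 0.00252).

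Among 7 other receptors 3 rose and 1 fell. MUSK, the kinase of the neuromuscular junction whose outer part resembles a frizzled, was at 1.59, 0.793 and 2.22 CPM in GM and 15.0, 17.5 and 21.6 CPM in DM samples (log2 fold change 3.56, SE 0.284, adjusted p = 1.45e-06). FZD10 went from 2.83 ± 0.099 to 0.68 ± 0.236 CPM (log2 fold change -2.05, adjusted p = 9.34e-05). Of 9 other antagonists and R-spondin genes 2 rose and 1 fell: DACT3, a relative of DACT1, went from 5.57, 6.63 and 6.01 to 24.0, 26.9 and 22.2 CPM (log2 fold change 2.004, SE 0.114, adjusted p = 1.24e-07). KREMEN2, a relative of KREMEN1, had 7, 1 and 5 counts in GM and 8, 22 and 20 in DM samples (log2 fold change 2.07, adjusted p = 0.0186), and was not called without GM replicate 2 (adjusted p = 0.0582) or DM replicate 2 (adjusted p = 0.0628).

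Among 17 genes of the destruction complex and Dishevelled 1 rose and 1 fell. APC2, a relative of the tumor suppressor APC, was at 10.6 ± 0.348 and 26.5 ± 5.28 CPM (log2 fold change 1.32, adjusted p = 1.11e-05), and FRAT1, which binds GSK3, had 10 to 12 and 2 to 4 counts (log2 fold change -1.66, adjusted p = 0.0285). FRAT1 was not called by DESeq2 (adjusted p = 0.118), nor without GM replicate 1, GM replicate 3, DM replicate 2 or DM replicate 3 (adjusted p = 0.0666 to 0.0931). Of 14 nuclear cofactors 1 was called, the corepressor TLE2 at 2.22 ± 0.267 and 0.944 ± 0.158 CPM (log2 fold change -1.23, adjusted p = 0.00147). In the planar cell polarity and calcium branch 5 of 15 rose (33.3%, against 15.0% of all genes) and 0 fell by the edgeR call. At the adjusted p alone 8 (53.3%) were higher and 3 (20%) lower, against 31.6% and 31.4% of all genes. The cadherin CELSR3 went from 1.04 ± 0.333 to 5.50 ± 1.01 CPM (log2 fold change 2.40) and PRICKLE2 from 8.25 ± 0.834 to 23.0 ± 3.97 CPM (log2 fold change 1.48).

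Of 11 commonly cited transcriptional targets 1 rose (9.09%) and 4 fell (36.4%), against 15.0% and 10.3% of all genes. Whether these shares differ was not tested. CCND1, the cyclin of the step from G1 into S phase, was at 46.7, 48.2 and 40.8 CPM in GM and 3.05, 5.49 and 9.49 CPM in DM samples (log2 fold change -2.90, SE 0.282, adjusted p = 6.47e-06), and FOSL1, an AP-1 factor, at 57.1 ± 5.05 and 8.29 ± 1.16 CPM (log2 fold change -2.78, SE 0.111, adjusted p = 1.39e-08). No sample of either group overlapped the other in these genes. The media differ in serum as well as in the state of the cells, and the effects of both cannot be told apart.

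**Figure D4:**
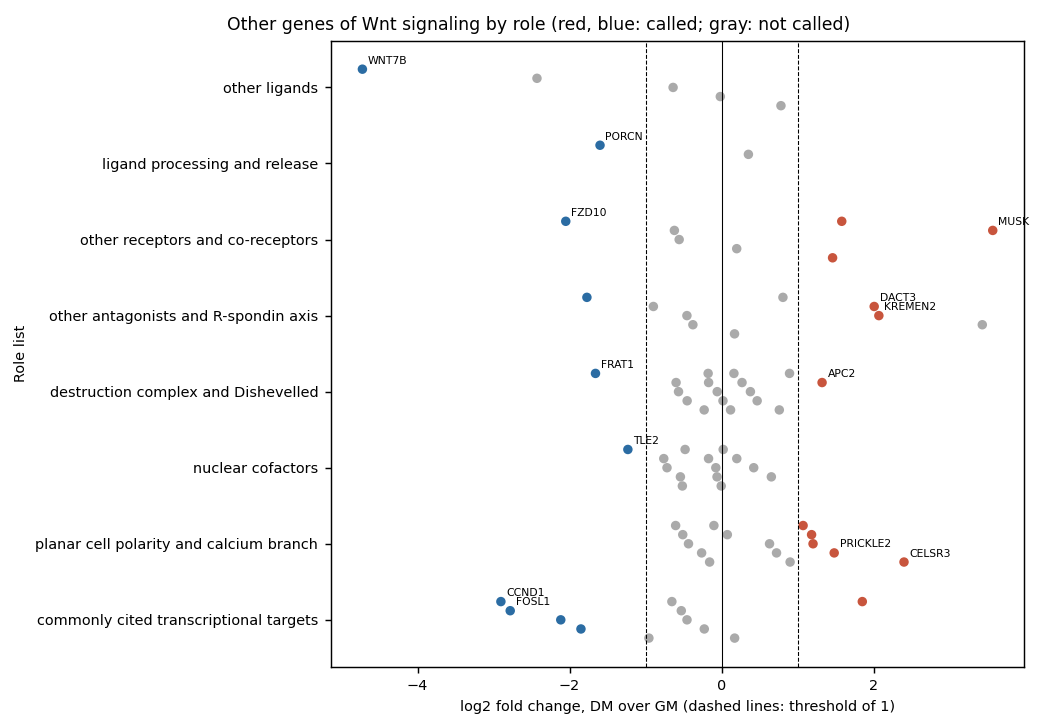
Fitted log2 fold change of DM over GM (x axis) of the 80 tested genes of the second list, 1 point a gene, by role, red where called higher, blue where called lower and gray where not called. Called genes lie only on the right in the planar cell polarity and calcium branch (5), and mostly on the left among the targets (4 of 5).

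Several set genes differed between DM replicates. In 12 of 43 set genes (27.9%, against 19.8% of all genes tested) DM replicate 3 was more than 1.5-fold from the mean of DM replicates 1 and 2. WNT5B, DKK1, SFRP2, WIF1, LEF1 and TCF7 were above that mean, and WNT5A, WNT16, DKK2, SFRP4, FRZB and LGR5 below it. Several of these had few reads: in DM replicates 1, 2 and 3, DKK1 had 4, 0 and 4 counts and DKK2 2, 6 and 0. WIF1 had 2, 6 and 12, WNT16 7, 11 and 5, LEF1 13, 5 and 17 and LGR5 26, 16 and 11. For such genes counting error was not told apart from a difference between replicates. Without that replicate 33 of the 43 passed the adjusted p alone, 76.7% against 66.8% of all 15356 genes then tested, and of these 19 were higher (44.2% against 33.9%) and 14 lower (32.6% against 32.9%). In CPM, SFRP1 at 126 to 139, DKK3 at 149 to 165 and DACT1 at 96.6 to 102 kept close in the 3 DM samples, in contrast to SFRP2 and SFRP4. Cell type markers differed in that sample too, in both directions. Of 10 myoblast and satellite cell markers 3 were above and 6 below the mean of the other DM samples, among them PAX7 at 3.90 RPKM against 7.68 and 7.08 and the myogenic factor MYOD1 at 20.4 against 34.1 and 39.4. Of 13 differentiated muscle markers 12 were above it, with MYH3, MYH7, TNNT1 and TNNC1 by more than 1.5-fold. Of 14 fibroblast and fibro-adipogenic markers 3 were above and 11 below, with PDGFRA at 93.7 RPKM against 138 and 139 and the matrix protein POSTN at 109 against 52.7 and 59.0. Of 10 smooth muscle and pericyte markers 6 were above and 4 below. By more than 1.5-fold, CSPG4 was above and KCNJ8 and RGS5 were below. The pericyte proteoglycan CSPG4 was at 17.8 RPKM against 6.91 and 6.56, and KCNJ8 at 5.48 RPKM against 10.4 and 8.34. RGS5 had 1, 0 and 0 counts in DM replicates 1, 2 and 3. In the lists of low level, 4 of 7 endothelial, 4 of 6 adipocyte, 0 of 5 macrophage and leukocyte and 4 of 4 Schwann and neural markers were above. Their part in the differences between DM replicates was not tested, and the labels name no batch.

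**Figure D5:**
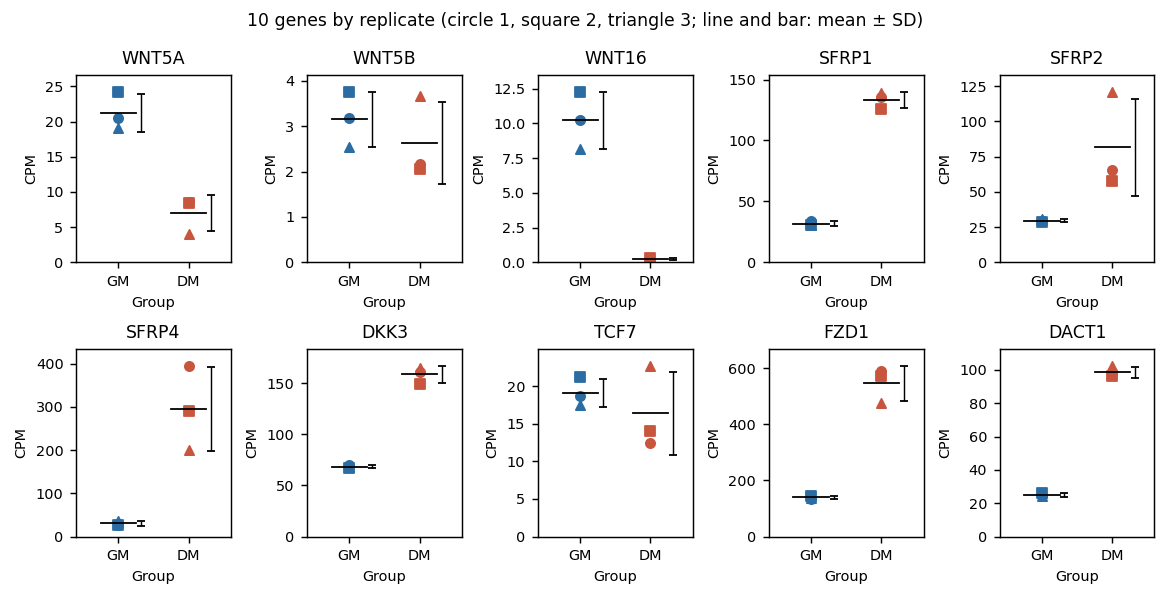
CPM of 10 genes in each GM (blue) and DM (red) sample, with circles, squares and triangles for replicates 1, 2 and 3 and the group mean ± SD (n = 3) as a line and a bar. DM replicate 3 is the lowest DM sample for WNT5A (3.97), SFRP4 (199.96) and FZD1 (476) and the highest for SFRP2 (121), WNT5B (3.68) and TCF7 (22.7).

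Cell type markers moved beside these genes. All 13 tested markers of differentiated muscle rose, and their summed RPKM was 799 to 1319 in GM and 6634 to 9852 in DM samples. Of 14 tested markers of fibroblasts and fibro-adipogenic cells 8 rose and 0 fell by edgeR (12 higher and 1 lower at the adjusted p alone), with sums of 8463 to 8665 RPKM in GM and 21563 to 26702 RPKM in DM samples, led by COL1A1, COL3A1 and COL1A2. SFRP2, SFRP4, DKK3 and FZD1, all among the set genes called higher, are known from such cells as well as from muscle. Which cells their reads came from was not tested, and the other set genes were not sorted in this way. Of 10 myoblast and satellite cell markers 2 rose and 3 fell (3 higher and 6 lower at the adjusted p alone). Their sums were 1354 to 1456 RPKM in GM and 948 to 1197 RPKM in DM samples. Smooth muscle and pericyte markers summed to 2923 to 3105 and 2306 to 2916 RPKM, with 1 of 10 called, higher (2 higher and 2 lower at the adjusted p alone). TAGLN, DES and ACTA2 carried most of that sum, so it does not show the course of the weaker genes. The called gene was KCNJ8, with 16, 13 and 5 counts in GM and 612, 511 and 344 counts in DM replicates 1, 2 and 3. DES is in both of these lists and was not called. It made up most of the myoblast and satellite cell sum, at 1015 to 1105 RPKM in GM and 758 to 1045 RPKM in DM samples.

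Markers of other types were low. Sums were 2.08 to 2.37 and 2.40 to 3.81 RPKM for endothelium (1 of 7 higher, 3 lower), 4.12 to 5.24 and 5.56 to 6.72 for adipocytes (2 of 6 higher, 1 lower), 4.54 to 6.05 and 3.63 to 6.61 for macrophages and leukocytes (1 of 5 higher, 1 lower) and 2.42 to 3.26 and 6.80 to 9.56 for Schwann and neural cells (1 of 4 higher, 1 lower). ERBB3 made up most of the Schwann and neural sum in DM samples, at 0.370 ± 0.143 RPKM in GM and 6.75 ± 1.11 RPKM in DM samples. It was the gene of that list called higher. NGFR, the gene of that list called lower, was at 1.30 and 0.136 RPKM. ADIPOQ, the adipocyte hormone, had 3 to 8 counts in GM and 1 to 14 in DM samples. In these bulk samples a change in the number of cells of a type and a change in RNA per cell cannot be told apart, and the part of cell makeup in the Wnt gene changes was not tested.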

How the data were processed

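PolyA RNA-seq of 3 GM and 3 DM samples was analysed, grouped by the sample titles. The authors deposited raw counts per gene and per mRNA transcript, without normalization, and RPKM values made from these counts with the deposited Length column, in bases, and the summed counts of a sample. The methods name HISAT2 and the buffalo genome, the submitters' processing notes name Bowtie 0.12.2 and mouse builds, and the tables list cattle Ensembl identifiers with coordinates but no build. The counter is not given in the sources used here. The authors' lists of differentially expressed features, with log2 fold changes, p-values and q-values, and the ncRNA table were not used. No column was left unmapped.

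Counts per sample are the depth, and TMM factors were 1.03 to 1.04 in GM and 0.948 to 0.983 in DM samples. edgeR 4.0.16 in R 4.3.3 was run on the counts (TMM, glmQLFit, glmQLFTest, Benjamini-Hochberg over the whole table), after removal of features whose 6 counts summed to less than 10. A feature was called at a log2 fold change beyond 1 in either direction with an adjusted p under 0.05. CPM were scaled by TMM. Standard errors were taken from the F statistic, and intervals are at 95%. Ratios for genes with few reads have exact intervals, which cover counting error only, and the floor was 3 counts per library. The code was tested on simulated data. Tables were handled in Python 3.11.15 with pandas 2.3.3, numpy 2.4.6 and scipy 1.17.1.

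Each listed set gene could be named. From the second list the 2 called genes of largest change per role and CCND1 were named, and WLS was added after its values were seen, and from each marker list the 3 genes of highest mean RPKM and the defining markers. The set genes and lists were chosen with earlier results of these data known. The 10 genes of the replicate plot, the Dickkopf shares and the counts at the adjusted p alone without DM replicate 3 were added after the data were seen. POSTN, CSPG4, KCNJ8, RGS5 and the myosin and troponin genes were also named after the data were seen. Alternatives were DESeq2 1.42.0, its size factors in edgeR, library size alone, other filters on low counts, calls by adjusted p alone, glmTreat with a fold change of 2, a block for the replicate number, and each sample left out. The second list names WISP3 also as CCN6, and of 2 entries of RAC1 the expressed one was used. No sequences were printed and no promoters searched, as sequence was not used here.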

Additional observations from a re-analysis of the deposited data

How the results depend on the processing

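With 3 samples a group and no named batch, the tests cover the spread of these samples only, and genes with few counts have wide intervals. With DESeq2, its size factors or no count minimum, the call of each of the 43 set genes was the same. Same-numbered samples did not deviate together (correlations of deviations from the group mean -0.00756, -0.0218 and -0.0105). With 3 samples a group, that does not show whether cultures or animals were paired. With the replicate block 18 set genes, 21 genes of the second list and 18 transcripts were called by edgeR. Over all features the block called 3837 of 15576 genes and 4094 of 16352 transcripts. Each of the 43 set gene calls was the same, and FRAT1 was not called (adjusted p = 0.0621 by edgeR). Leaving out 1 sample gave 16 to 19 set genes called (11 to 15 higher, 4 to 6 lower), 19 to 22 genes of the second list and 18 to 22 transcripts. Over all genes the calls then ranged from 3647 of 15398 (without GM replicate 2) to 3995 of 15356 (without DM replicate 3). For transcripts the range was 3904 of 16201 to 4274 of 16140, without the same samples. Without a minimum fold change 29 set genes passed, 12 of them lower, with 53 of the second list and 33 transcripts. Under the RPKM rule (at least 1 RPKM in more than 50% of samples) 29 set genes were tested and 12 called (11 higher, 1 lower), and 57 of the second list were tested and 12 called; the rule drops genes expressed in 1 group only. Over all genes, 2197 of 11587 were called under the RPKM rule. Of 15576 genes tested, 9813 (63.0%) passed without a minimum fold change, against 3936 (25.3%) with it. The test against a fold change of 2 called 2293 of 15576. That test kept 13 set genes, and lost WNT10B, ROR1, ROR2, SFRP2 and RSPO3, whose intervals hold a log2 change of 1, and from the named genes of the second list KREMEN2, FRAT1 and TLE2. The RPKM rule and filterByExpr each lost RSPO3 (-0.95 and -0.995). Library size alone moved the median of all genes from 0.03 to -0.07. Uncalled genes whose sign turned were LRP6 (-0.065 with library size alone, -0.013 to 0.11 with 1 sample left out, negative without GM replicate 2 or DM replicate 1), APCDD1 (-0.015 with library size alone, -0.077 to 0.29 with 1 sample left out, lowest without DM replicate 3), WIF1 (-0.53 without DM replicate 3, up to 0.56) and LEF1 (-0.70 to 0.014, highest without DM replicate 2). The cause was not tested.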
